A study of Mus musculus with 8 samples.

Results

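The Ly6 family genes *Ly6a*, *Ly6c1*, *Ly6d*, *Ly6e* and *Psca* and the progenitor marker genes *Prom1*, *Sox9*, *Kit* and *Cd44* were examined in whole prostate of mice with and without *Olfm4*. The 9 genes were chosen by name, and every probe set annotated to them on the array was taken, which gave 15 of the 45037 probe sets tested. A probe set is a group of short probes that together report 1 transcript. Of the 15, 14 carried the symbol of a single gene, and these stood for 7 genes: *Ly6d*, *Ly6e*, *Psca*, *Prom1*, *Sox9*, *Kit* and *Cd44*. *Ly6c1* shared its probe set with *Ly6c2*, and no probe set was listed for *Ly6a*, which is not analysed here.

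RNA of 4 *Olfm4*-knockout and 4 wild-type mice, all 3 months old, was hybridised to genome-wide Affymetrix arrays, 1 mouse to an array. Knockout mice lacked both copies of *Olfm4* and wild-type mice carried both, and the strain background of either group was 50% National Institutes of Health Black Swiss, with 129/SV as the other 50%. The mice came from crosses of heterozygous animals, and no source used here limits the deletion to a cell type. Ly6 alleles are known to differ between mouse strains, and which alleles each mouse carried was not tested. The sample titles carry 2 dates, here called array days, and either held 2 knockout and 2 wild-type arrays. Which step of the work the dates mark is not stated. In whole tissue, fewer cells of a type and less RNA per cell cannot be told apart.

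Ly6 proteins are small and cysteine-rich, and most are held at the cell surface by a glycosylphosphatidylinositol (GPI) anchor. Ly6a, also called Sca-1, has long been used to enrich progenitor cells from mouse prostate, and Psca (prostate stem cell antigen) belongs to the same family. Prom1 (CD133), Cd44 and Kit are surface proteins that have served the same purpose, and Sox9 is a transcription factor needed for the budding of the prostate. Several of these genes are also active outside the epithelium, *Ly6c1* in endothelium and leukocytes, *Cd44* in leukocytes and *Kit* in mast cells.

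The label of the tissue was borne out by its luminal markers. Of 10 listed, 8 were measured, among them the secretory genes *Pbsn*, *Tgm4* and *Msmb*, and their mean log2 value lay between 12.93 and 13.70 on every array. *Olfm4* lay between 3.00 and 3.25 on the knockout arrays and between 10.23 and 10.74 on the wild-type arrays. Knockout array 1 and wild-type array 1 stood apart through transcripts of seminal vesicle, the gland that adjoins the prostate, with a mean log2 value of 13.81 and 14.15 over 6 markers against 7.88 to 10.04 on the other arrays. Knockout array 1 also had the lowest mean of the luminal markers, 12.93. Among them *Msmb* (11.09), *Spink1* (12.88), *Fkbp5* (10.55) and *Hoxb13* (13.11) were lowest on this array. *Krt8* (13.64) was highest on it, and *Krt18*, *Pbsn* and *Tgm4* lay within the range of the other arrays. The mean of 12 endothelial markers was highest on knockout array 1, 8.30 against 7.70 to 7.97 elsewhere. Smooth muscle and fibroblast markers, 8 of each, were also highest on it, at 12.93 against 12.43 to 12.62 and at 10.49 against 9.82 to 10.27.

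No member probe set passed the test across all probe sets (limma with array day as a second term, Benjamini-Hochberg adjusted p under 0.05), a threshold that 0.111% of all probe sets passed. At an unadjusted p under 0.05, 1 of the 15 was higher in knockout prostate, that of *Ly6d*, where 5.46% of all probe sets were. At the same threshold 2 were lower, 1 of *Sox9* and 1 of *Cd44*, where 7.34% of all probe sets were. The knockout arrays lay wholly above the wild-type arrays for *Ly6d* (3.69% of all probe sets) and wholly below them for 3 probe sets, of *Sox9*, *Cd44* and *Prom1* (5.03% of all probe sets). The median log2 fold change of the 15 was -0.02, against -0.01 over all probe sets.

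**Figure D1:**
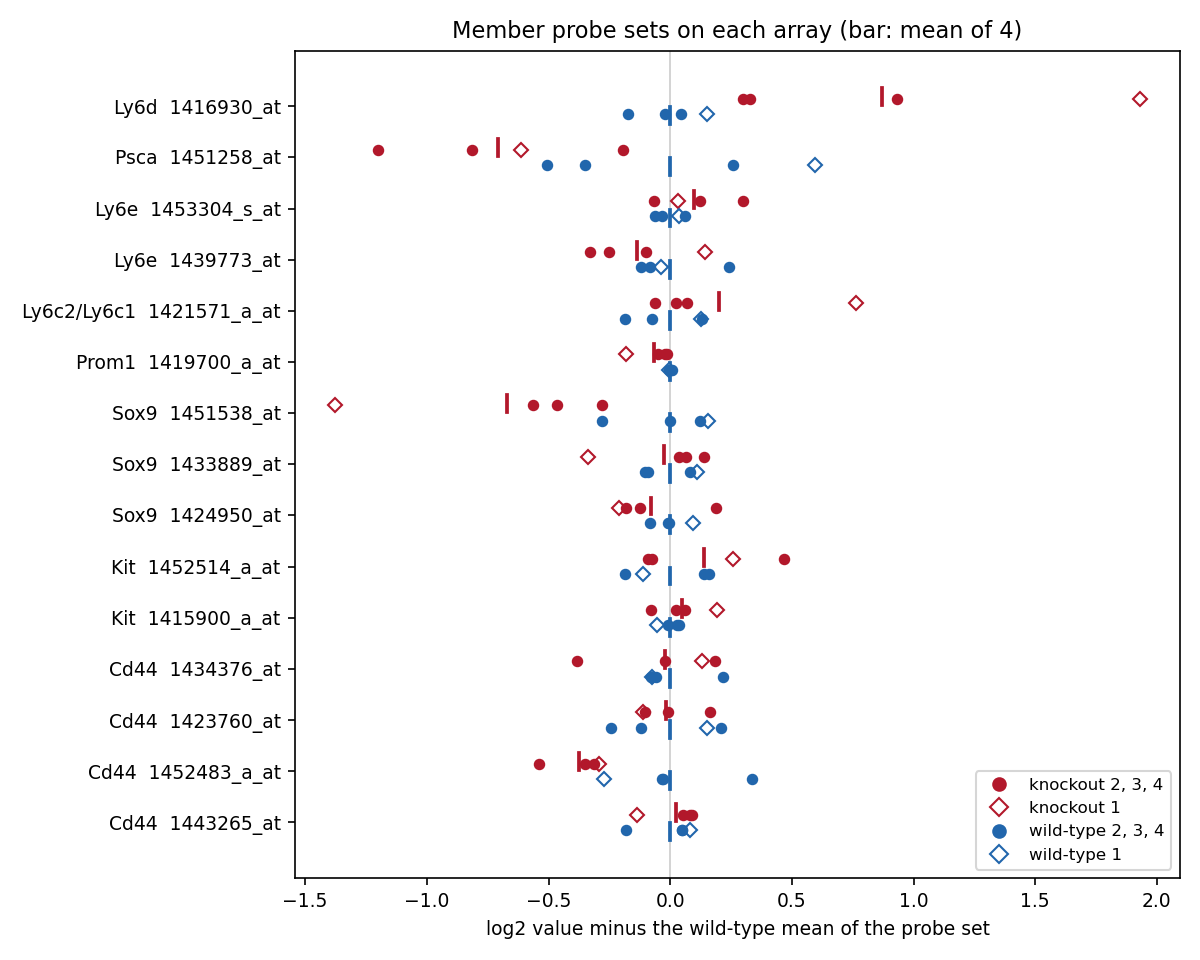
Log2 value of each of the 15 member probe sets on each array, minus the wild-type mean of that probe set, with red for knockout, blue for wild-type and a bar at each group mean. Open diamonds are knockout array 1 and wild-type array 1. *Ly6d* is the row in which the red points all lie to the right of the blue ones, and knockout array 1 is the farthest point of *Ly6d*, of the *Ly6c2* and *Ly6c1* probe set and of the brightest *Sox9* probe set.

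*Ly6d*, a Ly6 gene of basal and progenitor epithelial cells and of early B cells, had the largest difference of the members on all 8 arrays, but not without knockout array 1, where *Psca* had -0.75. Its log2 value was 9.61, 8.01, 7.98 and 8.61 on knockout arrays 1 to 4 and 7.83, 7.72, 7.505 and 7.66 on wild-type arrays 1 to 4. The groups were fully separated (p = 0.0286 in a 2-sided exact permutation test, and no smaller p is possible with 4 against 4), and knockout array 1 was far above the others. The group means were 8.55 ± 0.76 (SD, n = 4) and 7.68 ± 0.14 (SD, n = 4), which differed by 0.87 (95% confidence interval 0.069 to 1.68), or 1.83-fold. The adjusted p was 0.359 in limma. Within array day 1 the difference was 0.55 and within array day 2 it was 1.19. Without knockout array 1 it was 0.49, and without both arrays rich in seminal vesicle transcripts it was 0.52 (unadjusted p = 0.0353).

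*Psca*, which lies in the same cluster of Ly6 genes on chromosome 15, had a lower mean in knockout prostate. The log2 value was 9.07, 8.87, 9.49 and 8.48 on knockout arrays 1 to 4 and 10.28, 9.95, 9.34 and 9.18 on wild-type arrays 1 to 4. The groups overlapped, since knockout array 3 was above wild-type arrays 3 and 4, and the highest values came from wild-type arrays 1 and 2. A log2 fold change of -0.71 (95% confidence interval -1.41 to 1.5e-05, adjusted p = 0.391) was found, with -0.74 and -0.67 within array days 1 and 2. It was -0.48 without wild-type array 1. *Ly6d* and *Psca* are both also abundant in urothelium. The 6 urothelial markers, all measured, had a mean log2 value between 8.21 and 8.70 on the knockout arrays. On the wild-type arrays it lay between 7.74 and 8.87, with wild-type array 1 the highest. The single markers went different ways on knockout array 1. It was the highest array for *Upk1b* (12.39), *Upk2* (9.23) and *Upk3b* (8.33) and the lowest for *Upk1a* (8.82), *Upk3a* (6.09) and *Krt20* (4.41). The part of these markers in the values of *Ly6d* and *Psca* was not tested.

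*Ly6e*, a broadly active Ly6 gene that interferon induces, was near the top of the measured range at 1 probe set and did not separate the genotypes. Its brighter probe set (1453304_s_at) read 13.63, 13.53, 13.72 and 13.90 on knockout arrays 1 to 4 and 13.63, 13.54, 13.57 and 13.66 on wild-type arrays 1 to 4. The difference was 0.097 on the log2 scale (95% confidence interval -0.067 to 0.26, adjusted p = 0.610). The suffix of this probe set marks probes that can match other transcripts as well, and the RefSeq table holds a pseudogene of *Ly6e*. The second probe set (1439773_at) had a difference of -0.13 (95% confidence interval -0.44 to 0.17), with -0.39 within array day 1 and 0.12 within array day 2. It was -0.24 without knockout array 1 and -0.27 without both arrays rich in seminal vesicle transcripts.

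The probe set shared by *Ly6c1* and *Ly6c2* cannot tell these nearly identical genes apart. It read 11.33, 10.50, 10.63 and 10.59 on knockout arrays 1 to 4 and 10.69, 10.70, 10.38 and 10.49 on wild-type arrays 1 to 4. Knockout array 1 stood alone, and the other 7 arrays lay within 10.38 to 10.70. The difference between the genotypes was 0.20 (95% confidence interval -0.24 to 0.63, adjusted p = 0.702), and -0.0026 without knockout array 1. The same array had the highest levels of endothelial, smooth muscle and fibroblast markers, as given above, and their part in this value was not tested.

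The wider family gave no called gene either. Of 34 further Ly6 and related genes listed, 25 had a probe set of their own. Unadjusted p-values under 0.05 came from 2 genes with a higher and 4 with a lower mean, where 6.27% and 8.49% of all genes had them, and the median log2 fold change was 0.02 at the brightest probe sets against -0.01 over all 18193 genes. *Lypd8*, known from the colon epithelium, read 5.75, 5.23, 5.51 and 5.24 on knockout arrays and 4.92, 4.82, 4.86 and 4.68 on wild-type arrays, without overlap (log2 fold change 0.61, 95% confidence interval 0.32 to 0.91, adjusted p = 0.192). *Gpihbp1*, which carries lipoprotein lipase across capillary endothelium, read 7.77, 7.95, 7.83 and 7.88 against 8.58, 8.28, 8.45 and 8.10. The knockout arrays lay wholly below the wild-type arrays at this gene, and the log2 fold change was -0.49 (adjusted p = 0.209). The differences of *Lypd2* and *Ly6g6e* were -0.40 and -0.46 on the log2 scale, with overlapping groups (adjusted p = 0.328 and 0.336). *Lynx1*, which encodes a modulator of nicotinic receptors, and *Ly6g6d*, the neighbour of *Ly6g6e*, are named after their values were seen. They had 0.49 and -0.51 (unadjusted p = 0.0469 and 0.0322), and the former was 0.15 without the 2 arrays rich in seminal vesicle transcripts. Without these arrays 2 of the 25 genes were higher and 2 lower at an unadjusted p under 0.05.

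*Ly6f* is named here for a single array. Its log2 value was 8.99 on knockout array 1, and between 3.06 and 3.69 on the other 7, wild-type array 1 included. Its log2 fold change of 1.39 (95% confidence interval -1.39 to 4.18) became -0.06 without knockout array 1, so the value stood on that mouse alone.

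The genes between and beside the Ly6 genes on chromosome 15 were read in the order of the RefSeq table. Of 65 genes from 10 before *Psca* to 10 after the last Ly6 gene, 28 were measured, 17 with a higher and 11 with a lower mean. At an unadjusted p under 0.05, 2 were higher, *Ly6d* and *Lynx1*, where 6.27% of all genes were. They are neighbours in this order among the measured genes, and whether that means anything was not tested. Both were highest on knockout array 1, at 9.61 and 9.03, and had 0.52 and 0.15 without both arrays rich in seminal vesicle transcripts. At the same threshold 4 were lower, where 8.49% of all genes were. These were spread from *Jrk* and *Lypd2* at one end to *Gpihbp1* and *Zfp41* at the other. Their log2 fold changes were -0.39, -0.40, -0.49 and -0.20. The other probe set of *Jrk* differed by 0.14. In limma no gene of the stretch was called, and the median log2 fold change was 0.02.

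**Figure D2:**
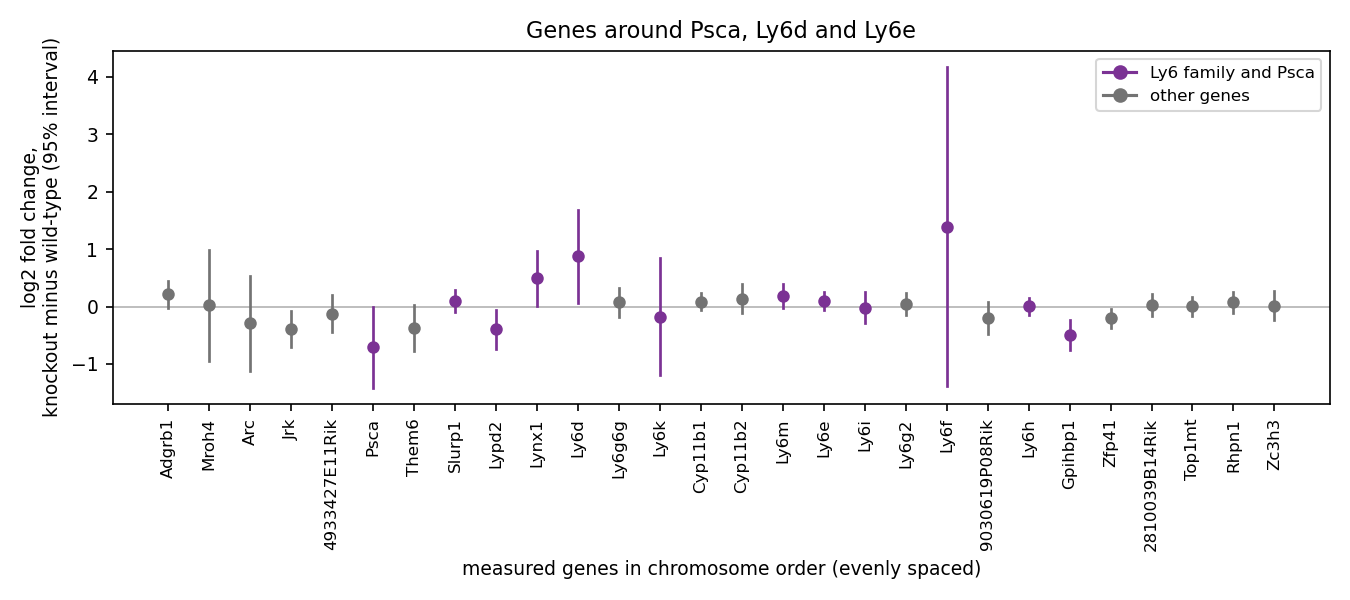
Difference between knockout and wild-type means (log2 fold change) for 28 measured genes in and around the Ly6 cluster in chromosome order, with points for the limma estimate at the brightest probe set and lines for its 95% confidence interval, purple for genes of the Ly6 list and *Psca* and grey for the rest, *Ly6g6g* and *Ly6g2* included, which were not on the list. Intervals of *Ly6d* and *Lynx1* lie above 0, those of *Jrk*, *Lypd2*, *Gpihbp1* and *Zfp41* below 0, and the wide interval of *Ly6f* comes with its single high array.

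*Sox9* differed between its probe sets. The brightest (1451538_at) read 8.55, 9.36, 9.46 and 9.64 on knockout arrays 1 to 4 and 10.08, 9.92, 10.04 and 9.65 on wild-type arrays 1 to 4. The groups did not overlap (p = 0.0286 in a 2-sided exact permutation test), but the highest knockout and the lowest wild-type array were 9.642 and 9.645. The means were 9.25 ± 0.48 (SD, n = 4) and 9.92 ± 0.20 (SD, n = 4), a difference of -0.67 (95% confidence interval -1.19 to -0.15, adjusted p = 0.303), or 1.59-fold lower in knockout prostate. It was -0.31 and -1.03 within array days 1 and 2, -0.44 without knockout array 1, and -0.36 without both arrays rich in seminal vesicle transcripts (unadjusted p = 0.0453). The 2 dimmer probe sets had differences of -0.02 and -0.08, with confidence intervals from -0.30 to 0.25 and from -0.31 to 0.15, and of 0.15 and -0.02 without these arrays. All 3 had knockout array 1 as their lowest array. This array also had the lowest mean of the luminal markers, though not the lowest value of each. The part of these markers in the *Sox9* values was not tested.

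*Cd44*, the gene of the hyaluronan receptor, was likewise lower at 1 of its 4 probe sets. This probe set (1452483_a_at) read 6.81, 6.76, 6.57 and 6.79 on knockout arrays 1 to 4 and 6.83, 7.07, 7.44 and 7.08 on wild-type arrays 1 to 4. Every knockout array was below every wild-type array, with wild-type array 1 closest to them. The log2 fold change was -0.37 (95% confidence interval -0.64 to -0.11, adjusted p = 0.279), with -0.27 and -0.47 within array days 1 and 2 and -0.45 without both arrays rich in seminal vesicle transcripts. The suffix of this probe set marks probes common to several transcripts of the gene. Of the other probe sets, the 2 brightest had differences of -0.02 each, with confidence intervals from -0.34 to 0.30 and from -0.30 to 0.27, and the dimmest one of 0.02. Leukocyte markers, of which 12 of 13 were measured, had a mean log2 value of 8.10 to 8.54 on knockout and 8.23 to 8.81 on wild-type arrays. Their part in the *Cd44* value was not tested.

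*Prom1*, which encodes the pentaspan membrane protein CD133, had a single probe set, whose mean of 13.70 was at percentile 99.4 of all probe set means. Whether values this high are compressed was not tested. It read 13.55, 13.68, 13.72 and 13.71 on knockout arrays 1 to 4 and 13.73, 13.72, 13.73 and 13.74 on wild-type arrays 1 to 4. Although the groups did not overlap, the difference was -0.07 on the log2 scale (95% confidence interval -0.21 to 0.08, adjusted p = 0.695). It was -0.04 without the 2 arrays rich in seminal vesicle transcripts. *Prom2*, the related gene, differed by -0.43 (unadjusted p = 0.411), which became 0.37 without these arrays, and it was named after its values were seen.

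*Kit*, the receptor of stem cell factor, gave low values. Its brighter probe set (1452514_a_at) read 4.20, 4.41, 3.86 and 3.85 on knockout arrays 1 to 4 and 3.83, 4.10, 3.76 and 4.08 on wild-type arrays 1 to 4. The other (1415900_a_at) stayed between 3.17 and 3.44 on all 8 arrays. Their means were at percentiles 19.96 and 7.15 of all probe set means, and no detection calls were used, so whether *Kit* RNA was present was not tested. The differences were 0.14 (95% confidence interval -0.17 to 0.45) and 0.05 (95% confidence interval -0.13 to 0.22). Mast cells carry Kit, and their 8 listed markers, all with a probe set, had a mean log2 value of 6.34 to 7.12 on knockout and 6.26 to 6.99 on wild-type arrays. Of these, *Fcer1a* and *Ms4a2*, subunit genes of the IgE receptor, were the lowest, with means of 4.54 and 4.59. The other listed markers had higher means, from 5.32 for *Tpsab1* to 9.10 for *Hdc*.

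**Figure D3:**
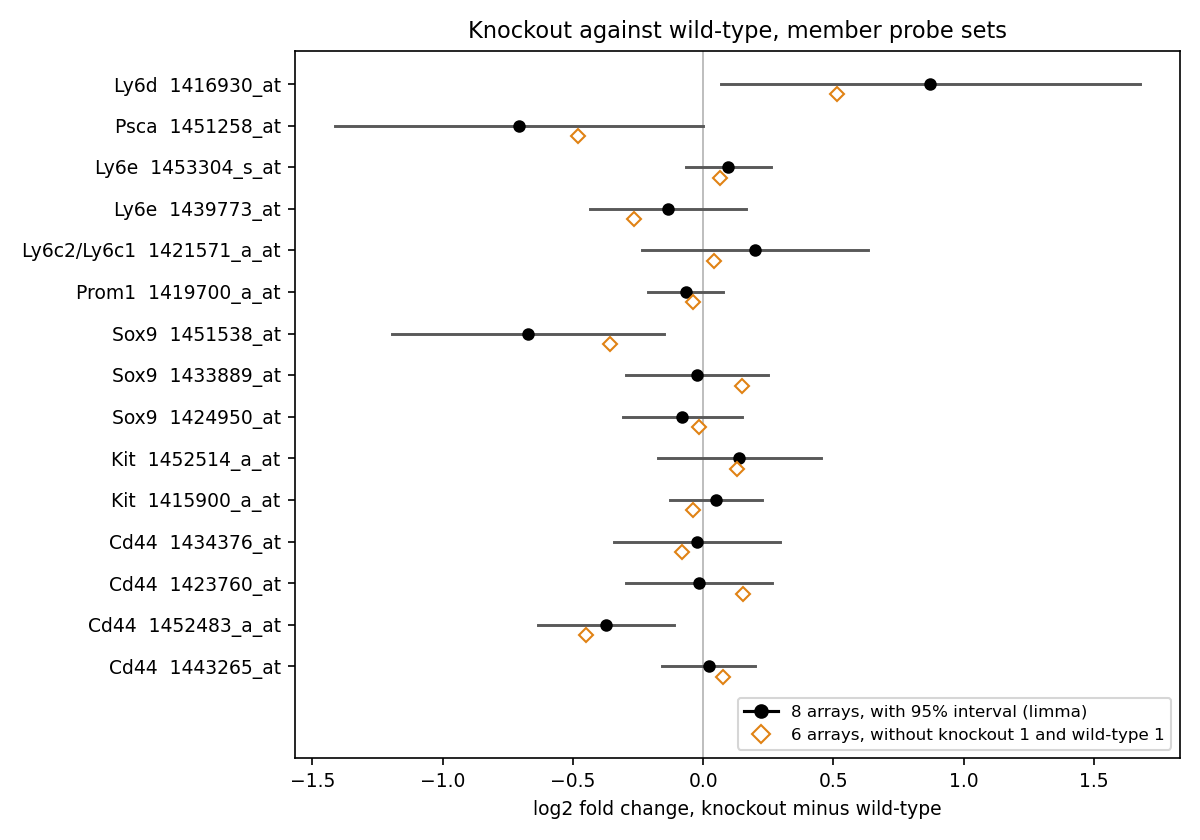
Difference between knockout and wild-type means (log2 fold change) for the 15 member probe sets, with black points and lines for the estimate on 8 arrays and its 95% confidence interval from limma, and open orange diamonds for the estimate on 6 arrays without knockout array 1 and wild-type array 1. The interval lies off 0 for *Ly6d*, for 1 of 3 *Sox9* and for 1 of 4 *Cd44* probe sets. The diamonds of *Ly6d*, *Psca* and the brightest *Sox9* probe set are nearer to 0 than the points.

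*Kitl*, which encodes stem cell factor, the ligand of Kit, stood out among 18 listed partners of the progenitor markers, of which 16 were measured. Its 4 probe sets went in opposite directions, each with groups that did not overlap. The brightest (1415855_at) read 9.28, 9.60, 9.44 and 9.70 on knockout and 8.62, 8.84, 8.59 and 9.05 on wild-type arrays. The second (1448117_at) read 7.47, 7.74, 8.19 and 8.27 on knockout and 9.13, 8.90, 9.19 and 9.02 on wild-type arrays. The former differed by 0.73 (95% confidence interval 0.43 to 1.04, adjusted p = 0.1401) and the latter by -1.15 (95% confidence interval -1.48 to -0.81, adjusted p = 0.0577). The latter passed an adjusted p under 0.05 with an intensity trend and robust variance (0.0288) and after a filter on dim probe sets (0.0479), and had an adjusted p up to 0.467 under the other alternatives. The remaining 2 had 0.51 and 0.42 (adjusted p = 0.246 and 0.269). Both directions held on either array day, with 0.74 and 0.73 for the former and -0.85 and -1.44 for the latter. No single direction can therefore be given for *Kitl*, and whether the probe sets read different transcripts or alleles was not tested.

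**Figure D4:**
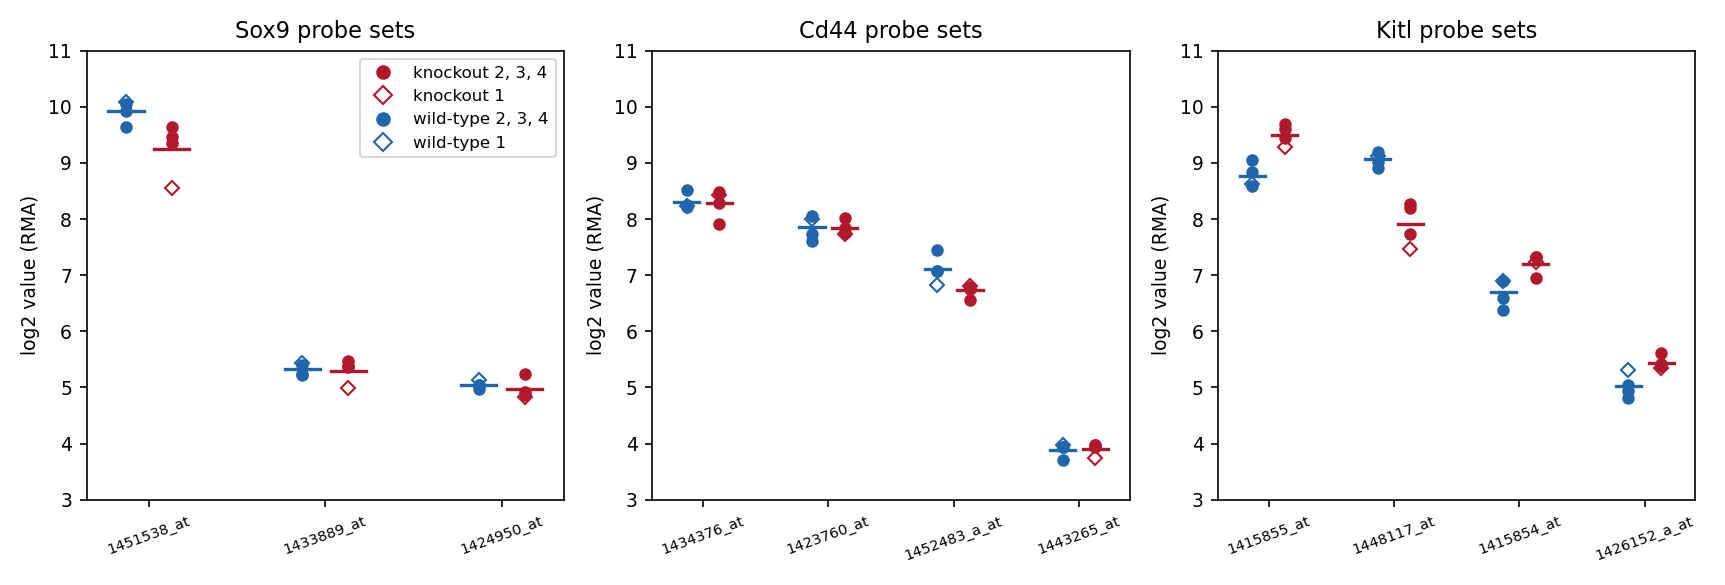
Log2 value of each *Sox9*, *Cd44* and *Kitl* probe set on each array, with red for knockout, blue for wild-type, bars for the group means and open diamonds for array 1 of either genotype. Of *Sox9* and *Cd44* a single probe set each separates the colours, and of *Kitl* all 4 do, with red below blue at 1448117_at and above it at the other 3.

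Among the other partners, *Has2*, a hyaluronan synthase gene, was higher at an unadjusted p under 0.05, with a log2 fold change of 0.33 (adjusted p = 0.386) and overlapping groups. The dimmer probe set of *Has2* differed by 0.10. *Has1* and *Has3* had 0.02 and -0.0016. Of the SOX genes listed beside *Sox9*, *Sox4* had -0.32 (unadjusted p = 0.0762), and *Sox5*, *Sox6*, *Sox8* and *Sox10* lay between -0.24 and 0.17.

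Further stem and basal progenitor genes were listed, 22 in all, of which 21 were measured. An unadjusted p under 0.05 was found for 2 with a higher and 1 with a lower mean (6.27% and 8.49% of all genes), the median log2 fold change was 0.08 against -0.01 over all genes, and none was called. The list mean was highest on knockout array 1, 10.58 against 10.17 to 10.34 elsewhere. On it *Abcg2*, named after its values were seen, read 11.93, against 7.13 to 7.88 elsewhere. Its log2 fold change of 0.72 became -0.43 without both arrays rich in seminal vesicle transcripts. Without these arrays 3 genes of the list were higher and 2 lower at an unadjusted p under 0.05, and *Krt15* and *Cd34* were not among them. *Klf4*, a transcription factor of stem cells and of differentiated epithelium, read 10.13, 10.08, 10.15 and 10.05 on knockout and 10.89, 10.60, 10.77 and 10.59 on wild-type arrays. All knockout arrays lay below all wild-type arrays, with little spread among them. The log2 fold change was -0.61 (95% confidence interval -0.81 to -0.41, adjusted p = 0.0773 in limma), and the adjusted p ran from 0.0358, without array day as a term, to 0.839, on array day 1 alone, over the alternatives. Its other probe set differed by 0.04, with a confidence interval from -0.25 to 0.32. The basal keratin gene *Krt15* had 0.40 (adjusted p = 0.313) and *Cd34*, a marker of vascular and stromal progenitors, 0.29 (adjusted p = 0.376). The basal genes *Trp63*, *Krt5* and *Krt14* had 0.21, 0.16 and 0.15, and *Bmi1* and *Lgr5* had 0.09 and -0.0013, with unadjusted p from 0.246 to 0.996.

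Genes of the proximal luminal cells that carry Psca and Sca-1 had means on either side of wild-type. Of 13 measured, the mean was higher for 6 and lower for 7. At an unadjusted p under 0.05 only *Cldn4*, a tight-junction gene, was lower, and none was higher, where 8.49% and 6.27% of all genes were. *Cldn4* read 8.72, 8.97, 9.06 and 8.85 on knockout and 10.35, 10.43, 10.43 and 8.92 on wild-type arrays. Wild-type array 4 lay among the knockout arrays, and the log2 fold change was -1.13 (95% confidence interval -1.88 to -0.38, adjusted p = 0.265). Without wild-type array 4 it was -1.51 (adjusted p = 0.00887, against 0.211 to 0.850 under the other alternatives), and without both arrays rich in seminal vesicle transcripts it was -0.71 (unadjusted p = 0.0675). *Krt4* and *Krt7*, keratin genes of these cells, differed by -0.38 and 0.56, with confidence intervals that held 0.

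**Figure D5:**
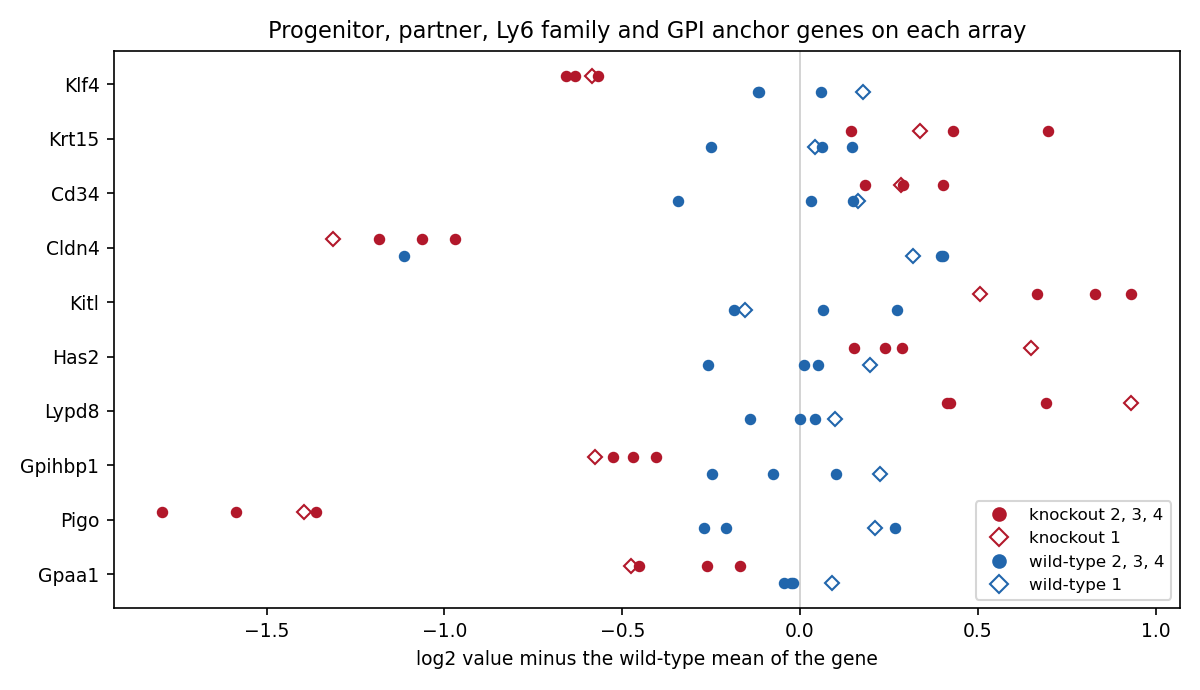
Log2 value of 10 related genes at their brightest probe sets on each array, minus the wild-type mean of the gene, with red for knockout, blue for wild-type and open diamonds for array 1 of either genotype. The genes were picked from those named for an unadjusted p under 0.05 on these same arrays, so the choice favours separated colours. The colours do not overlap for *Klf4*, *Cd34*, *Kitl*, *Lypd8*, *Gpihbp1*, *Pigo* and *Gpaa1*, and 1 wild-type array of *Cldn4* lies among the knockout arrays. Of all probe sets, 8.72% have groups that do not overlap.

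The GPI anchor by which most Ly6 proteins are held had 1 called gene among 7, where 31 of all 18193 genes were called. *Pigo*, an enzyme gene of anchor synthesis, read 10.52, 10.55, 10.12 and 10.32 on knockout and 12.12, 11.70, 12.18 and 11.64 on wild-type arrays. It fell by 1.53 on the log2 scale at this probe set (95% confidence interval -1.88 to -1.19, adjusted p = 0.0183), and its other probe sets differed by -0.29 and -0.19. Leaving out knockout array 2, knockout array 3, knockout array 4 or wild-type array 3 ended the call (adjusted p from 0.0789 to 0.102), as did leaving out both arrays rich in seminal vesicle transcripts (0.0718). *Gpaa1*, a subunit gene of the transamidase that attaches the anchor, differed by -0.34 (adjusted p = 0.198) at its brightest probe set and 0.02 and -0.00069 at the others. *Pgap1* had 0.28 (adjusted p = 0.365) at its brightest probe set and 0.06 at the other.

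Interferon, which induces *Ly6e*, is known to induce another list of genes that were lower in many cases without a call. Of 17 measured out of 20, 8 were lower and none higher at an unadjusted p under 0.05, against 8.49% and 6.27% of all genes, with a median log2 fold change of -0.30 against -0.01 over all genes. *Ifit3* and *Mx1* had -1.58 and -1.04 (adjusted p = 0.0956 and 0.102), and *Usp18* and *Oasl2* -1.17 and -0.97 (adjusted p = 0.209 and 0.227). Without the 2 arrays rich in seminal vesicle transcripts, 5 were lower. *Ly6e* had a difference of 0.097 at its brighter probe set, which was at percentile 99.3 of all probe set means, and of -0.13 at the other, and both intervals held 0.

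The genes whose centred values ran closest to each member over the 8 arrays were sought among 14291 genes with a mean log2 value of at least 5. Likeness was the root mean square difference on the log2 scale, to be read against the spread of the member itself. For *Ly6d*, with a spread of 0.64, these were *Rgs6* (0.18), *Adamts4* (0.19) and *Scara5* (0.20). For *Psca*, with a spread of 0.54, they were *Acsbg1* (0.24), *Spock1* (0.26) and the immunoglobulin segment *Igkv6-14* (0.26). For *Sox9*, with a spread of 0.46, they were *Sp5* (0.093), *Acy1* (0.11) and *Ighv14-2* (0.12). The nearest genes to *Ly6e*, *Prom1*, *Kit* and *Cd44* were *Mastl* (0.048), *Trim44* (0.012), *Trpm6* (0.072) and *Plcd4* (0.075), where the spread of the member was 0.11, 0.058, 0.21 and 0.18. Over so many genes and so few arrays, such nearness is a description of these mice.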

How the data were processed

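The deposited log2 values were made by the authors with RMA, a method that corrects background, makes the distributions of the arrays equal and gives 1 value per probe set. Its version is not stated in the sources used. Array medians ranged from 6.03 to 6.09. The number of arrays limits the precision. Groups, replicate numbers and array days came from the sample titles.

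The 2-sided moderated test of limma 3.58.1 (R 4.3.3) was fitted with terms for genotype and array day, and p was adjusted by Benjamini-Hochberg over 45037 probe sets, 64 controls left out. The methods name ANOVA, which was run without array day as an alternative. A fold change is knockout minus wild-type on the log2 scale. The platform annotation named 34945 probe sets by 1 symbol, and 18032 of 18193 genes were matched to RefSeq (GRCm38.p6), used for names and order. Outside the members, a gene is represented by its brightest probe set.

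The members, the 14 gene lists and the alternatives were chosen with earlier results of these data known. Named were all member probe sets, *Olfm4*, up to 4 genes of each list with the smallest unadjusted p under 0.05, and the 3 nearest genes by profile. The text marks or adds other names, picked with their values known. The fit was tested on simulated data.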

Additional observations from a re-analysis of the deposited data

Results flagged for a closer look

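Of 30 groups of 4 arrays, 1 for each member probe set and genotype, 4 held an array far from the other 3, where chance alone marks about 1 group in 20. The gap to the nearest array, divided by the range of the group, was above the critical value of Dixon's test in each. In wild-type prostate it was 0.922 for *Cd44* at 1434376_at, where array 4 was high, and 0.875 for *Cd44* at 1443265_at, where array 3 was low. In knockout prostate it was 0.844 for *Cd44* at 1443265_at, where array 1 was low, and 0.843 for the probe set of *Ly6c1* and *Ly6c2*, where array 1 was high. At 1443265_at every array lay within 3.70 to 3.97, and the mean was at percentile 17.9 of all probe set means, so these gaps were small.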

How the results depend on the processing

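No member probe set was called under any alternative, but the design has few arrays, and a missed threshold does not show that the genotypes were alike. Over all probe sets, 50 were called. There were 20 with replicate number as a block in place of array day, 24 with ANOVA that also left out array day (71 with limma and no array day) and 4 on either array day alone, and 17 to 43 with 1 array left out. The replicate block left 1 member higher and 3 lower at an unadjusted p under 0.05. Same-numbered arrays correlated by -0.01 to 0.34 in their deviations from the group means, and not every array did so best with its own number, so the numbers were not taken as pairs. The 1 member higher at an unadjusted p under 0.05 became 0 with that ANOVA and on either array day, and stayed 1 with limma and no array day. With 1 array left out there were 0 to 1 higher and 1 to 3 lower, and on array day 1 alone 1 lower. The count without overlap that was higher became 2 without both replicate 1 arrays, an alternative chosen after the data were seen. The second was *Cd44* 1443265_at, at percentile 17.9 of all probe set means, where the nearest arrays read 3.9375 (knockout 2) and 3.9337 (wild-type 4). Smaller groups separate more easily, and the share of all probe sets separated on these 6 arrays was not computed. The 2 lower Ly6 family and 5 lower interferon-stimulated genes came from the same alternative. The call of *Pigo* was lost with the replicate block (adjusted p = 0.0900), with that ANOVA (0.114) and on array day 1 (0.471) or 2 (0.354) alone. Signs turned for small differences. With array medians subtracted, *Cd44* 1423760_at had 0.014, *Cd44* 1434376_at 0.0061 and *Sox9* 1433889_at 0.0049. On array day 1 alone *Kit* 1452514_a_at had -0.10, *Sox9* 1433889_at 0.047 and *Ly6f* -0.32. On array day 2 alone *Cd44* 1434376_at had 0.23 and *Ly6e* 1439773_at 0.12. Without both replicate 1 arrays *Cd44* 1423760_at had 0.15, *Kit* 1415900_a_at -0.038 and *Sox9* 1433889_at 0.15. With 1 array left out, *Cd44* ran from -0.095 to 0.063 at 1423760_at, from -0.084 to 0.099 at 1434376_at and from -0.024 to 0.067 at 1443265_at. *Kit* 1415900_a_at ran from -0.0039 to 0.10, the *Ly6c1* and *Ly6c2* probe set from -0.0026 to 0.33, *Sox9* 1433889_at from -0.11 to 0.085 and *Ly6f* from -0.055 to 2.16. The cause was not tested.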

Other observations

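Of 60 measured markers of 7 cell types or tissues other than luminal epithelium, 4 had an unadjusted p under 0.05, where 14.8% of all genes had one, and none was called. *Upk3b*, a uroplakin gene also known from mesothelium, had log2 fold changes of 1.73 and 2.49 at its 2 probe sets (adjusted p = 0.280 and 0.3002 in limma). The brighter read 8.33, 7.45, 7.80 and 7.14 on knockout and 6.97, 6.69, 5.44 and 4.70 on wild-type arrays, without overlap. *Hdc*, the histidine decarboxylase gene listed here for mast cells, had -0.58 at both of its probe sets (adjusted p = 0.221 and 0.180). The mast cell markers did not move together. Of the 8, 3 had a higher and 5 a lower mean, with a median log2 fold change of -0.03. The T cell receptor complex genes *Cd3e* and *Cd3g* had -0.66 and -0.65 (adjusted p = 0.281 and 0.325) with overlapping groups. On knockout array 1 the uroplakin gene *Upk1a*, named after its values were seen, had a log2 value of 8.82, against 11.70 to 12.53 on the other 7 arrays.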
